A study of Drosophila melanogaster with 12 samples.

Results

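The transcript of Usp8, a Drosophila deubiquitinase gene, was followed in fly heads over the first 2 days after a daily temperature cycle had ended. The platform annotation assigned 1 of the 13966 probe sets of the array that are not controls to Usp8, namely 141593_at, and no other probe set carried its symbol or a synonym such as CG5798 or Ubpy. The RefSeq gene table places the gene on chromosome arm 3R. Head RNA of adult cn bw flies, which carry mutations in a pair of eye pigment genes, was hybridised to 12 Affymetrix Drosophila Genome 1 arrays, with 1 array per collection of pooled heads. The flies were kept in darkness, first at 25 °C, then in a thermocycle of 12 h at 18 °C (the cryophase) and 12 h at 25 °C (the thermophase) for more than 4 days, and finally at 25 °C throughout. Collections were made every 4 h from AA2 to AA46, where AA0 is the onset of the first subjective cryophase, so that 6 times of day (2, 6, 10, 14, 18 and 22 h) were each sampled on day 2 and on day 1. All arrays share strain, darkness and constant temperature, and no array of the thermocycle or of a clock mutant was analysed here. The labels do not say that flies of different collections were reared separately, so the spread between days may be partly technical.

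Ubiquitin attached to a protein marks it for destruction or for sorting, and deubiquitinases remove it. In Drosophila, Usp8 acts mainly at endosomes, where it removes ubiquitin from receptors such as Smoothened and Frizzled and from the sorting protein Hrs. It has also been reported to take ubiquitin off CLK, the transcription factor that, with CYC, activates per, tim and vri in the circadian clock.

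The last array, AA46, resembled the others least. Its values had a mean r of 0.992 with theirs, against at least 0.996 for each of the other 11. Its mean over 3 control probe sets for 18S rRNA was 4.09 log2, against 2.78 to 2.99 log2 elsewhere, and the muscle gene up reached 8.11 log2 there, against 7.13 to 7.33 log2. Of the head markers, Arr1, Arr2 and trp of photoreceptors averaged 13.1, 12.7 and 11.1 log2, and the glial genes repo, nrv2 and moody 6.25, 6.29 and 6.21 log2. The neuronal gene nSyb averaged 7.16 log2, but elav, the usual marker of neurons, only 3.19 log2, below the filter on low values.

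Usp8 was chosen by its measured levels over these 12 arrays, for a large and regular 24-h range, so that its 24-h profile is described without a test. Its level was 7.15 log2 at AA2, 7.43 at AA6, 7.98 at AA10, 8.03 at AA14, 8.05 at AA18 and 7.84 at AA22. On the next day it was 7.36 at AA26, 7.85 at AA30, 8.38 at AA34, 8.33 at AA38, 8.07 at AA42 and 7.62 at AA46. The trough thus fell early in the subjective cryophase on both days, and the high values came from the late cryophase to the middle of the thermophase. The 6 arrays of 10, 14 and 18 h lay between 7.98 and 8.38 log2, and the 6 arrays of 22, 2 and 6 h between 7.15 and 7.85 log2, without overlap. The highest array, AA34, exceeded the lowest, AA2, by 1.24 log2, or 2.36-fold. Within each array Usp8 was more abundant by signal than 79.0% to 91.1% of the probe sets, although brightness also depends on the probes. In RNA of whole heads, fewer cells that express a gene and less of its RNA per cell cannot be told apart. The mean of the neuronal markers moved against Usp8, though not every marker did. Of the 5 listed, 4 could be named, and their mean per array lay between 5.22 and 5.43 log2 at 10, 14 and 18 h and between 5.30 and 5.49 log2 at 22, 2 and 6 h, with an r of -0.86 with Usp8 over the 12 arrays. By gene, r was -0.78 for brp, -0.65 for Rdl, -0.62 for elav, which was below the filter, and -0.06 for nSyb. The value for brp is that of its probe set with the highest mean. Its further probe set that passed the filter had an r of -0.008, and the one below the filter 0.06. The means of the photoreceptor and glial markers had an r of 0.39 and 0.09. The part of the cell makeup in the profile of Usp8 was not tested.

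**Figure D1:**
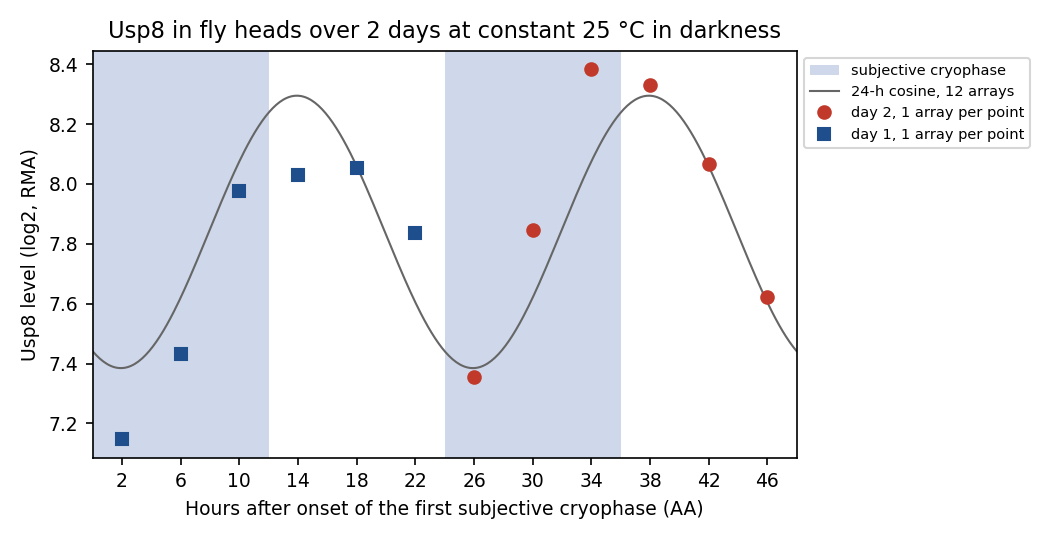
Usp8 level (log2, vertical axis) against hours after the onset of the first subjective cryophase, with 1 array per point (circles day 2, squares day 1), the fitted 24-h cosine as a line and the subjective cryophase shaded. The lowest points are AA26 on day 2 and AA2 on day 1, and the highest is AA34 at 8.38 log2.

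Averaged by time of day, Usp8 was highest at 14 h with 8.18 ± 0.21 log2 and 10 h with 8.18 ± 0.29 log2, followed by 18 h with 8.06 ± 0.01 log2 (SD, n = 2 each). The 3 lower means were 7.73 ± 0.15 log2 at 22 h, 7.64 ± 0.29 log2 for 6 h and 7.25 ± 0.15 log2 for 2 h (SD, n = 2 each). In this order the ranges of the arrays overlapped between 14 and 10 h, between 10 and 18 h, and between 22 and 6 h, so that these neighbours did not differ beyond their spread. The ranges were separate between 18 and 22 h, with means 0.33 log2 apart, and between 6 and 2 h, with means 0.39 log2 apart. The means of the highest and the lowest time of day differed by 0.93 log2, or 1.91-fold. The mean absolute difference between the days at 1 time of day was 0.26 log2. This contrast follows in part from the choice of Usp8 for a large and regular range.

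A cosine with a period of 24 h carried a share of 0.77 of the variance of Usp8 over the 12 arrays, a share called F24 here, after the 24-h spectral power by which the study scored rhythm. Its median over the 11156 probe sets that passed the filter was 0.135. The fitted difference from trough to peak was 0.91 ± 0.17 log2 (SE over 12 arrays), a ratio of 1.88-fold, with the peak at 13.9 ± 0.70 h, shortly after the onset of the subjective thermophase. By F24 Usp8 ranked 54th and by fitted peak-to-trough difference it ranked 10th of the 11156 probe sets. These ranks, and the distance from the median F24, follow in part from the choice of Usp8. The cosine did not describe all of its profile. The measured level minus the fitted one was -0.24 log2 at AA2, -0.26 at AA14, 0.23 at AA22, 0.23 at AA30 and 0.31 at AA34. Cosines with periods of 48, 16 and 12 h carried shares of 0.153, 0.0046 and 0.0706 of its variance, with medians of 0.195, 0.137 and 0.124 over all tested probe sets. At these collection times the periods divide up the same variance. Low shares at the other periods thus follow from the high share at 24 h, for which Usp8 was chosen.

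The profile of Usp8 was earlier on day 2 than on day 1 by fitted values. When each day was fitted alone, day 2 had its peak at 12.8 h and a peak-to-trough difference of 1.03 log2, and day 1 had its peak at 15.2 h and a difference of 0.89 log2. On day 2 the highest level came at 10 h, with lower ones at 14, 18 and 22 h, whereas on day 1 the levels at 10, 14 and 18 h all lay between 7.98 and 8.05 log2. These fits rest on 6 arrays each and the difference between them was not tested. AA46 closes the day 2 profile.

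Day 2 was then set against day 1 to ask whether the level of Usp8 changed under constant conditions, and is given for Usp8 as a description, since a gene chosen for a regular 24-h profile on these arrays has little room for a large day difference. Usp8 averaged 7.93 ± 0.40 log2 on day 2 and 7.75 ± 0.37 log2 on day 1 (SD, n = 6 each). It was higher on day 2 at 5 of the 6 times of day, with differences of 0.21 log2 for 2 h, 0.41 for 6 h, 0.41 for 10 h, 0.30 for 14 h and 0.01 for 18 h, and of -0.21 log2 for 22 h. With time of day as a block, the difference was 0.19 ± 0.08 log2 (SE). Over all 11156 tested probe sets, 0.412% were called higher and 1.2% lower on day 2 (limma adjusted p under 0.05). Both days belong to a single time course, so that day cannot be told apart from fly age or order of collection. Such a p rests on agreement over times of day, not on replicate days.

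The size of the day difference of Usp8 depended most on the arrays of 22 h. Leaving out AA46 or AA22, either of which removes the 22 h pair from the comparison, gave 0.27 ± 0.06 log2 (SE), or 1.20-fold. The photoreceptor markers Arr1, Arr2 and trp, the 3 of 10 listed that could be named, moved in the same direction. Their mean per array ran from 12.3 to 12.4 log2 on day 2 and 12.1 to 12.3 log2 on day 1, was higher on day 2 at 6 of 6 times of day and differed by 0.12 log2 on average. Of the 3, trp was called by itself (0.23 log2, limma adjusted p = 0.0238), a call lost without any one array of 2, 6, 10, 14 or 18 h. The neuronal genes nSyb, brp and Rdl differed by -0.12, -0.07 and -0.13 log2, with 0 of 3 called. The further probe set of brp that passed the filter went the other way, by 0.05 log2. The part of these cell types in the day difference of Usp8 was not tested.

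**Figure D2:**
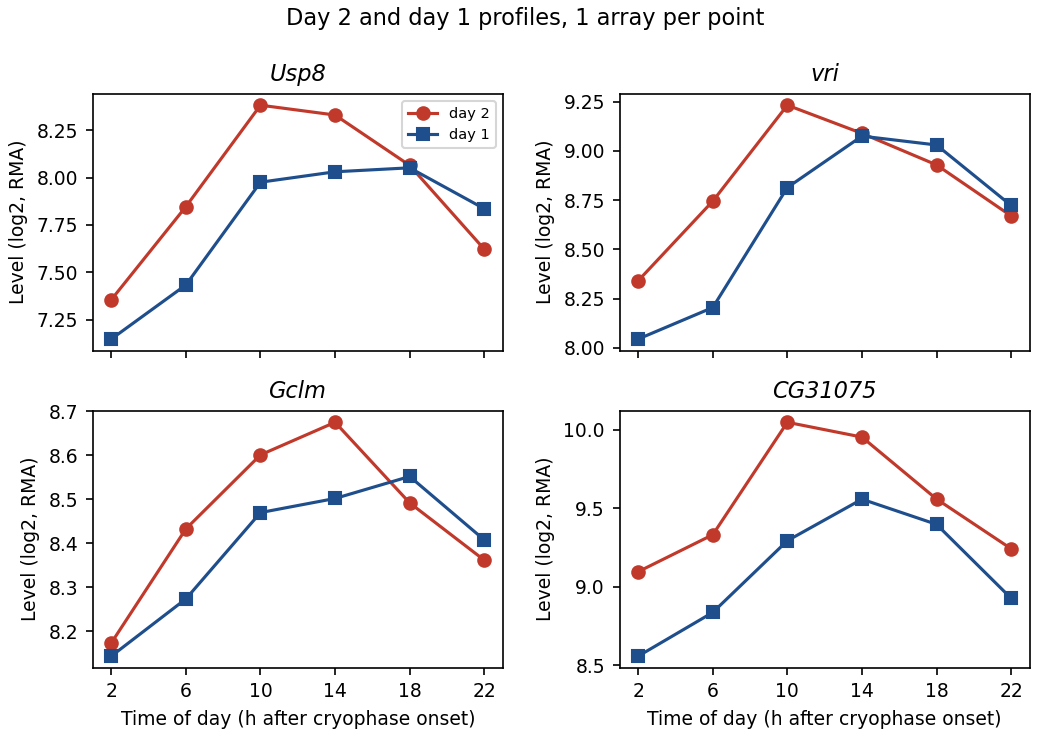
Levels (log2, vertical axes) of Usp8, vri, Gclm and CG31075 against time of day, with 1 array per point, day 2 as circles and day 1 as squares. For Usp8 the day 2 values lie above those of day 1 at every time but 22 h, and for CG31075 they do so at all 6 times.

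Usp8 was placed among the clock transcripts by its peak time. Its fitted peak differed from that of vri, which encodes a repressor of Clk transcription, by -0.53 h, and this difference stayed between -0.65 and -0.38 h when each array was left out in turn. The vri peak lay at 14.4 ± 0.74 h. The repressor gene per peaked at 15.0 ± 0.80 h, so that Usp8 differed from it by -1.06 h (-1.40 to -0.70 h), and its partner tim at 17.1 ± 0.96 h, a difference of -3.16 h (-3.87 to -2.79 h). Against Pdp1, which encodes an activator of Clk transcription, the difference was -5.32 h (-6.04 to -4.23 h). The Pdp1 peak, at 19.2 ± 1.6 h, is less well placed (unadjusted permutation p = 0.0933). The photoreceptor gene cry peaked 6.41 h (5.89 to 7.22 h) before Usp8, in the cryophase. Ranges from leaving out arrays are not confidence intervals, since the fits share most of their arrays. Some differences between single-day fits lay outside these ranges. On day 2 the peaks were 12.8 h for Usp8, 12.9 h for vri and 14.4 h for tim. On day 1 they were 15.2, 15.5 and 18.8 h.

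Most of these transcripts also had an earlier fitted peak on day 2, but not all. From the single-day fits, the day 2 peak differed from that of day 1 by -2.40 h for Usp8, -2.63 h for vri, -2.07 h for per, -4.36 h for tim, -5.24 h for Pdp1, -1.45 h for cry and -7.10 h for cwo. For cyc it was 5.65 h, later on day 2. For Clk it was 0.02 h, no shift at collections every 4 h, and its day 2 fit had an F24 of only 0.17. The ratios of cyc and cwo over 12 arrays were only 1.09 and 1.23-fold, so that their peaks are loosely placed. Pdp1 had a fitted peak-to-trough difference of only 0.16 log2 on day 2, so that its shift is loosely placed as well. All of these transcripts were measured on the same arrays and are not independent.

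Clk, whose product is a reported substrate of Usp8, had a profile of the opposite sign. It lay at 4.31 log2 on AA26, 4.03 on AA30, 3.80 on AA34, 3.59 on AA38, 4.15 on AA42 and 3.46 on AA46, and on day 1 at 4.50 on AA2, 4.68 on AA6, 4.04 on AA10, 3.92 on AA14, 3.92 on AA18 and 4.31 on AA22. Its r with Usp8 was -0.64 over 12 arrays and -0.88 without AA46, where Clk was at its lowest. Clk was below the filter on low values, and its fitted peak at 3.4 ± 1.8 h is loosely placed. The CLK partner gene cyc had an r of -0.22 with Usp8, and the repressor gene cwo 0.42. The further probe set of cwo that passed the filter had an r of 0.18 and a ratio of 1.11-fold, with a later fitted peak. Of the 7 tested core clock genes, 4 (per, tim, vri and cry) had an unadjusted local permutation p under 0.05. The background was 6.11% of all tested probe sets. The place of tim among the 4 depended on the probe set. Its further probe set that passed the filter had an unadjusted permutation p of 0.0625. That probe set had an r of 0.34 with Usp8, against 0.67 for the one used. The adjusted permutation test called 0 of the 7 genes and 0% of all tested probe sets. By limma's cosinor test 1 of the 7, vri, was called, against 0.296% of all tested probe sets.

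**Figure D3:**
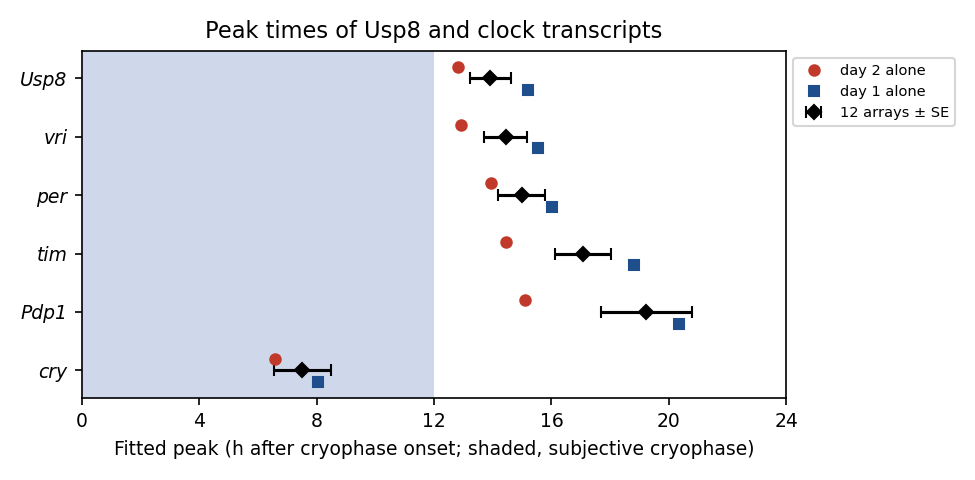
Fitted 24-h peak times (horizontal axis, hours after cryophase onset, cryophase shaded) of Usp8 and 5 clock transcripts, as diamonds with SE over 12 arrays, and from day 2 (circles) and day 1 (squares) alone. Usp8 has its 12-array peak at 13.9 h, next to vri at 14.4 h, and each gene shown has its day 2 peak before its day 1 peak, unlike cyc and Clk, which are not plotted.

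Among the 9964 other tested probe sets with 1 gene symbol, the profiles most like that of Usp8 were ranked by Pearson's r over the 12 arrays, as a description, since all profiles share the same libraries. The median r was -0.01, and its 5th and 95th percentiles were -0.51 and 0.50. The first place was held by Gclm, the modifier subunit of the enzyme that starts glutathione synthesis, with an r of 0.98. Gclm was at 8.14, 8.27, 8.47, 8.50, 8.55 and 8.41 log2 from AA2 to AA22 and at 8.17, 8.43, 8.60, 8.68, 8.49 and 8.36 log2 from AA26 to AA46. It thus followed Usp8 closely in order and shape, yet over a smaller range, 1.31-fold by its fitted cosine against 1.88-fold for Usp8.

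The second place was held by vri, with an r of 0.97 and a ratio of 1.83-fold, close to that of Usp8. It lay between 8.34 and 9.23 log2 on day 2 and between 8.05 and 9.08 log2 on day 1. CG31075 came next (r 0.91), and with 1.93-fold it had the widest range of these genes. It averaged 9.54 ± 0.39 log2 on day 2 and 9.10 ± 0.38 log2 on day 1 (SD, n = 6 each), and its difference of 0.44 ± 0.07 log2 passed the test between days (limma adjusted p = 0.00642), higher at 6 of 6 times of day. The call was lost without the time-of-day block (limma adjusted p = 0.232). CG31075 was picked for its likeness to Usp8 over both days, and Usp8 was itself higher on day 2. The choice could thus favour a day difference, and the p is not independent of it.

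The next places were held by Slob, which encodes a binding partner of the Slowpoke potassium channel (r 0.90, 1.43-fold), the carbonic anhydrase gene CAH9 (r 0.89, 1.31-fold), and chp, which encodes the photoreceptor surface protein chaoptin (r 0.87, 1.19-fold). The clock gene per (r 0.87, 1.45-fold), the cuticle protein gene Cpr76Bc (r 0.87, 1.17-fold), Npc2b (r 0.87, 1.23-fold) and Mec2 (r 0.86, 1.26-fold) completed the 10. Their fitted peaks lay between 13.1 and 15.1 h, which follows from their choice by likeness to Usp8. Of the 10, 7 were again among the 10 highest without AA46, the exceptions being per, Cpr76Bc and Mec2.

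At the other end, the 5 most opposite profiles were those of CG12134 (r -0.89), the cuticle protein gene Cpr47Ee (r -0.89), ssp3 (r -0.88), CG10513 (r -0.86) and Polr1H, an RNA polymerase I subunit gene (r -0.85). Their fitted peaks, between 1.05 and 2.82 h, follow from the choice as well. CG10513 had the widest range of them, 1.80-fold, with its highest values of 6.19 log2 on AA2 and 6.02 log2 on AA26, the arrays on which Usp8 was lowest. The other 4 had ratios of 1.08 to 1.16-fold. Of the 5, 3 were again among the 5 lowest without AA46, the exceptions being CG10513 and Polr1H.

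**Figure D4:**
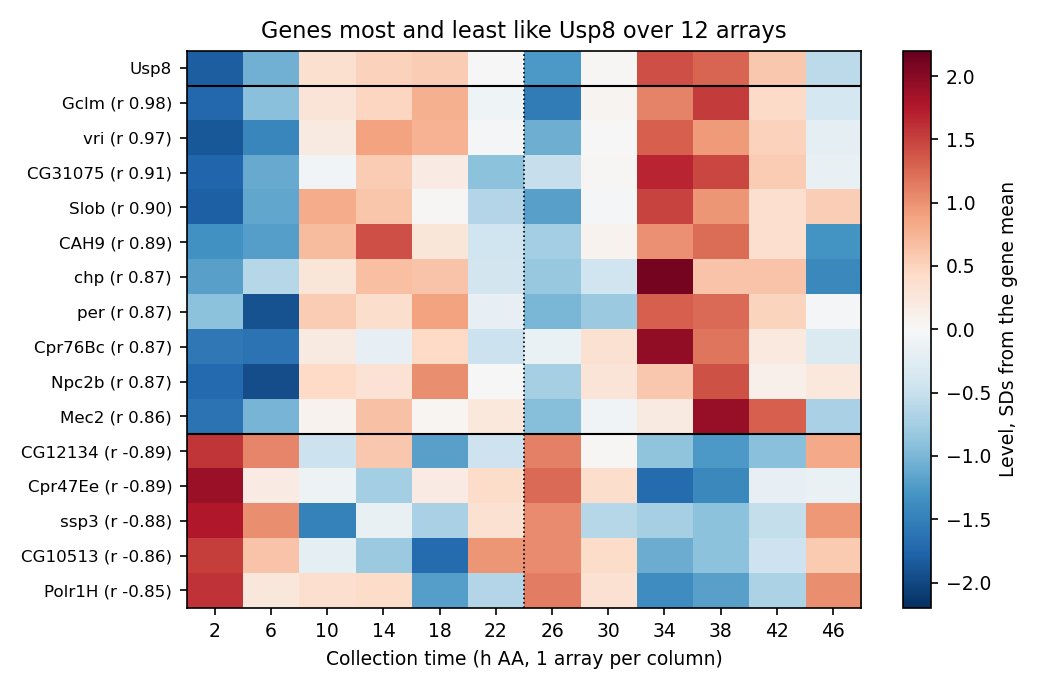
Levels in SDs from each gene's own mean (colour) on the 12 arrays in order of collection (columns, hours AA, dotted line between day 1 and day 2) for Usp8, the 10 genes with the highest and the 5 with the lowest r with it. The upper 10 are below their mean on AA2 and above it on AA38, and the lower 5 are high on AA2 and AA26.

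Usp8 was next set beside the other deubiquitinase genes. The list held 23 genes of the ubiquitin-specific protease (USP) family, to which Usp8 belongs, and 18 names of other deubiquitinases, of which 38 genes in all had a probe set named and 33 passed the filter. Usp8 had the largest fitted ratio of the 33, 1.88-fold, a rank that follows in part from its choice, and the next was eIF3f1, a translation initiation factor subunit with reported deubiquitinase activity, at 1.15-fold. Among the 18 other tested USP genes, ratios ran from 1.01 to 1.15-fold with a median of 1.07-fold, equal to the median of 1.07-fold over all tested probe sets, and 0 of 18 had a local p under 0.05, against the background of 6.11%. By limma's cosinor test 0 of these 18 were called, where the background of 0.296% leaves little to expect in so short a list.

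Usp7, for instance, lay between 7.81 and 8.14 log2 on 11 arrays and at 7.13 log2 on AA46, which gave a ratio of 1.14-fold (permutation p = 0.903). Usp32 had 1.15-fold (permutation p = 0.633), Usp10 1.12-fold (permutation p = 0.112), and Usp47, the most abundant by signal of the family, 1.10-fold (permutation p = 0.298). The 4 members Usp1, faf, not and CYLD were below the filter. The further probe sets of Usp10 and Usp14 that passed the filter had 1.05-fold (permutation p = 0.927) and 1.04-fold (permutation p = 0.866). One more such probe set, of another USP gene, had 1.21-fold at a mean of 4.40 log2 (permutation p = 0.181), above the range given for the family by the probe sets with the highest mean.

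Of the 14 tested genes listed as deubiquitinases outside the family, 1 (7.14%) had a local p under 0.05, near the 6.11% of all tested probe sets. It was CSN5, the catalytic subunit of the COP9 signalosome that removes Nedd8 from cullins. Not every gene on the list thus need act on ubiquitin. CSN5 lay between 5.88 and 6.21 log2, with a ratio of 1.13-fold and a fitted peak of 20.9 ± 1.2 h (permutation p = 0.0327, adjusted permutation p = 0.724), and its permutation p ran from 0.0162 to 0.0996 with each array left out. By limma's cosinor test its unadjusted p was 0.0534. The others included Uch-L5 (1.11-fold, permutation p = 0.121) and Rpn11, the deubiquitinase of the proteasome lid (1.04-fold, permutation p = 0.854).

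**Figure D5:**
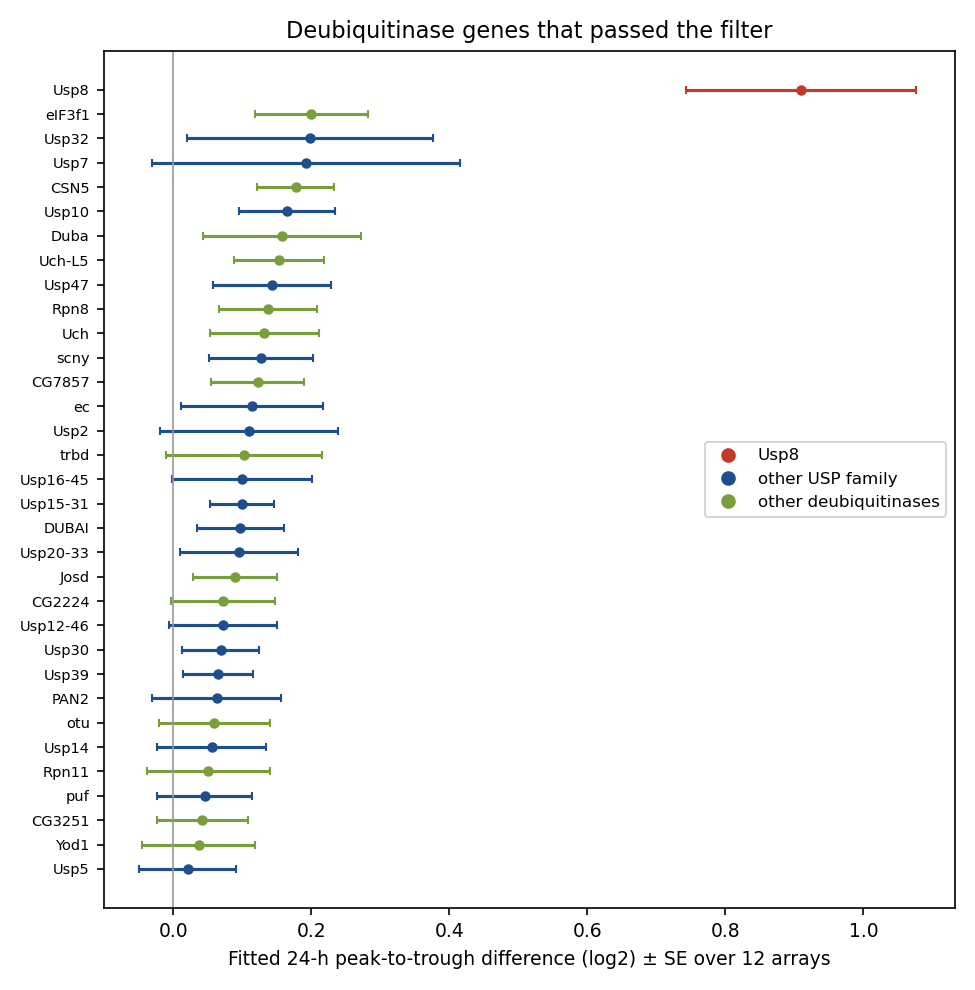
Fitted 24-h peak-to-trough difference (log2, horizontal axis) with SE over 12 arrays for the 33 genes listed as deubiquitinases that passed the filter. Usp8 is at the top, with other USP family genes and other listed deubiquitinases below in order of size. Usp8 stands at 0.91 log2, and eIF3f1, the next, at 0.20 log2.

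The endosomal sorting genes, whose products handle the ubiquitylated receptors that Usp8 acts on, gave no adjusted call in the rhythm test or between days. All 19 with a probe set named passed the filter, with ratios of 1.01 to 1.13-fold, and 2 of 19 (10.5%) had a local p under 0.05, against 6.11% of all tested probe sets. Vps24, of the late sorting complex ESCRT-III, had 1.13-fold and peaked at 17.2 ± 1.1 h (permutation p = 0.0260), and Vps28, of ESCRT-I, 1.06-fold, peaking at 8.75 ± 1.3 h (permutation p = 0.0337). Neither passed adjustment over all probe sets (adjusted permutation p = 0.703 and 0.725), and with each array left out their unadjusted permutation p ran from 0.00259 to 0.0820 and from 0.0139 to 0.108. By limma's cosinor test the unadjusted p was 0.0504 for Vps24 and 0.374 for Vps28. Hrs, itself a reported substrate of Usp8, lay between 8.25 and 8.47 log2 with 1.04-fold (permutation p = 0.579), and its partner gene Stam had 1.08-fold (permutation p = 0.596). ALiX, an ESCRT-associated protein gene, had the highest r with Usp8 of the listed genes outside the clock, 0.65, over a range of 9.76 to 9.93 log2.

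In the Hedgehog pathway, 7 of the 9 genes with a probe set named passed the filter and 0 had a local p under 0.05. The receptor component gene smo, whose product is a reported substrate of Usp8, lay between 4.43 and 5.22 log2, with 1.27-fold and a fitted peak at 5.5 h (permutation p = 0.133, and 0.0482 unadjusted by limma's cosinor test). The Hedgehog receptor gene ptc had 1.10-fold (permutation p = 0.0742), the kinesin-like cos 1.08-fold (permutation p = 0.236) and the co-receptor gene ihog 1.06-fold (permutation p = 0.794). The ligand gene hh and the effector gene ci lay below the filter at 2.95 and 3.87 log2. The 7 listed genes of Frizzled receptors and partners had no probe set named in the annotation used here and were not analysed.

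Of the 8 ubiquitin and conjugation genes, 0 had a local p under 0.05, and ratios ran from 1.02 to 1.27-fold. The lowest was that of the polyubiquitin gene Ubi-p63E (permutation p = 0.965). The highest was that of ben (permutation p = 0.503), which had its lowest level, 8.22 log2, on AA46, and Ubc6 had 1.20-fold (permutation p = 0.152). RpS27A, which encodes ubiquitin fused to a ribosomal protein, was lower on day 2 by 0.35 log2 in this single time course. It lay between 11.4 and 11.6 log2 on day 2 and between 11.8 and 11.9 log2 on day 1, without overlap, and was lower on day 2 at all 6 times of day (limma adjusted p = 0.00285, and 0.000333 to 0.0215 over the alternatives). It was the only one of the 66 tested genes of these lists, Usp8 and the core clock left out, that was called between days, a share of 1.52% against the background of 1.61%. At local p under 0.05 the share was 3 of 66, or 4.55%, against 6.11%, so that neither share exceeded its background. An unadjusted limma p under 0.05 between days was found for 8 of 66, or 12.1%, against 14.8% of all tested probe sets. The count at a local p under 0.05, 3, was 5 without AA10 or AA22, 1 without AA6 or AA34 and 0 without AA42.

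The genes beside Usp8 on the chromosome were described last. On one side the nearest were Trm7-34, with 1.06-fold (permutation p = 0.551), and Ice2, a subunit gene of the little elongation complex, with a ratio of 1.11-fold and a fitted peak of 16.5 ± 0.93 h (permutation p = 0.00297, adjusted permutation p = 0.408). On the other side were meigo, with 1.12-fold (permutation p = 0.107), and SNF4Agamma, the gamma subunit gene of AMP-activated kinase, with 1.11-fold (permutation p = 0.293). Ice2, at 5.63 to 5.87 log2, had an r of 0.60 with Usp8, while Trm7-34, the closest neighbour on its side, had -0.01. Further along on the side of Ice2 lie slmb and Bdbt, which act on clock proteins and were picked out after their values were seen. They had 1.11-fold (permutation p = 0.678) and 1.04-fold (permutation p = 0.779).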

How the data were processed

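RMA, run by the authors, gave the deposited log2 levels (background subtraction, quantile normalization and median polish over the probes of a probe set). Its version was not given in the sources used here. A change shared by most transcripts would be hidden by quantile normalization. Array medians were 5.64 to 5.67 log2, and the number of arrays limits the precision. Of 14010 probe sets 44 were controls. Symbols came from the platform annotation, updated by gene identifier against the RefSeq gene table (Release 6 plus ISO1 MT), and 12442 probe sets had 1 symbol. Neighbours of Usp8 follow the gene order of that table, and no sequence was used.

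Probe sets with more than 50% of values above the 20th percentile of their array (4.05 to 4.12 log2) were tested, 11156 in all. A local permutation p gives what share of 100000 random time orders reached the observed F24, with Benjamini-Hochberg adjustment across the tested probe sets. Its smallest value is 1e-05. Days were compared with limma 3.58.1 (R 4.3.3; lmFit, eBayes). No p is given for Usp8, which was chosen on these arrays. A call means an adjusted p under 0.05. A gene stands by its probe set with the highest mean. Both procedures were tested on simulated data. Alternatives comprised a limma cosinor test, day or trend terms, other filters, centring, quantile normalization, a linear scale, other periods and leaving out arrays.

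Usp8 and the gene lists were chosen with earlier results of these data known. Genes named are Usp8, list members with a local p under 0.05 or a day call or, in lists without any, up to 4 by ratio, the 10 most and 5 least like Usp8, and its nearest measured neighbours. Outside this rule eIF3f1, Uch-L5, Rpn11, Hrs, Stam, ALiX, Ubi-p63E, ben and Ubc6 were chosen after their values were seen. The same holds for the further probe sets, the markers and the members below the filter.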

Additional observations from a re-analysis of the deposited data

How the results depend on the processing

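The 24-h description of Usp8 kept its shape under the alternatives run. With each array left out in turn, F24 lay between 0.73 and 0.82, the peak-to-trough difference between 0.80 (without AA2) and 1.03 log2 (without AA14), and the peak between 13.6 and 14.5 h. Fitted by day, an alternative added after seeing the data, F24 was 0.97 on day 2 and 0.85 on day 1, and the peak-to-trough difference 1.03 log2 on day 2. A fit to so few arrays raises F24 by itself, so that these values cannot be set against the one over 12 arrays. With the day as a replicate block the ratio and peak were as without it and F24 was 0.82. Beyond the ranges with arrays left out, F24 was 0.70 with a period of 25 h. With a linear trend F24 was 0.83 and the peak 13.3 h. No paired analysis beyond the blocks was possible because no label numbers the replicates; the day stood in for a number.

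The number of listed genes other than Usp8 at local p under 0.05, 3 of 66, was 1 by the limma cosinor test (unadjusted; smo, while CSN5, Vps24 and Vps28 were lost) and 1 with array medians centred, 5 with the day as a replicate block, and 6 with a linear trend removed. Leaving out single arrays gave 0 to 5, and 0 to 1 for the USP family, with 1 without AA18 or AA46. At adjusted p under 0.05 it was 0 under each of these alternatives.

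The day difference of Usp8 lay between 0.14 and 0.27 log2 with each array left out, and was 0.27 log2 without either or both arrays of 22 h. The count of probe sets called between days, 180, was 80 to 379 with arrays left out. It was 80 to 100 without any one array of 2, 6, 10, 14 or 18 h and 379 without either or both arrays of 22 h. The causes of these shifts were not tested.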
